A study of Homo sapiens with 4 samples.

Results

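Broad m6A peaks, taken here as listed peaks longer than 1000 bp, are long stretches that are each listed as a single interval. Over them RNA pulled down with an antibody against N6-methyladenosine (m6A) stood above its background. Short gaps may lie within, as the joining of nearby stretches is not stated. Broad peaks were chosen by length alone, from a list of peaks for control cells and a list for cells given the bile acid chenodeoxycholic acid (CDCA). The rule took 1131 of 63093 control peaks and 960 of 52188 CDCA peaks, or 2091 of 115281 in all. The cells were GES-1, a cell line labelled as human gastric epithelium, whose identity was not checked here because peak lists hold no marker levels. Control cells were left untreated, and the other group had CDCA at 100 µM for 48 h. Each group gave 1 input and 1 m6A immunoprecipitation library, and the peaks came from the immunoprecipitations. The series asked which m6A sites differ under CDCA. As each condition rests on 1 library, every difference between the lists below is a description of those libraries. Intervals in brackets after a share are exact Clopper-Pearson 95% intervals for counting error only, and depth in reads is unknown.

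m6A is laid down on messenger RNA by the METTL3 and METTL14 methyltransferase and can be removed by the demethylases ALKBH5 and FTO. It is known to gather in the last exon around the stop codon and in unusually long internal exons, and many transcripts carry several methylated adenosines close together. Antibody pull-down of fragmented RNA does not resolve neighbouring methylated bases, so that runs of sites within a long exon can be listed as a single wide peak. Peaks here are intervals on the hg19 genome without strand or gene names. Gene symbols are background from the well-known hg19 position of each locus. All 41 symbols used were found on the same chromosome in RefSeq's GRCh38.p14 gene table, which was not used to place peaks, so that exon, intron or UTR position was not analysed here.

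Broad peaks were a small share of the listed peaks and a larger share of the listed sequence. They made up 1.79% of control and 1.84% of CDCA peaks, and 8.34% and 8.54% of the base pairs under all peaks. Median length was 1245 bp in control (quartiles 1106.5 and 1519 bp) and 1258 bp in CDCA (1103.75 and 1559.5 bp). Most were not far past the limit. In control 835 were up to 1500 bp long, 218 were longer and up to 2000 bp and 78 were longer than 2000 bp, against 684, 193 and 83 in CDCA. The 3 peaks of each list just above the limit were 1001 bp long and the 3 just below were 1000 bp. Fold enrichment at the summit, a ratio given by the authors, ran from 9.37 to 36.2 in the control peaks just above the limit and from 15.4 to 55.3 in those just below. In CDCA it ran from 14.5 to 44.8 just above and from 7.37 to 30.6 just below.

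Length went with strength within each list. Median fold enrichment in control was 7.75 for peaks at the minimum length of 200 bp, 11.0 for longer peaks up to 500 bp (called short here), 13.8 for those over 500 and up to 1000 bp (called medium here) and 21.8 for broad peaks, and in CDCA 7.04, 9.62, 13.9 and 21.1. Among broad peaks the median −log10 q, the authors' significance, rose with length in control from 258.4 in peaks up to 1500 bp to 367.9 in those up to 2000 bp and 675.4 in longer ones. In CDCA it was 225.9, 345.4 and 409.0. Over the same 3 length bins the median fold enrichment was 21.4, 22.4 and 25.8 in control, rising with length, and 20.3, 24.5 and 21.3 in CDCA, where it did not. Broad peaks also stood on a higher local background, computed from height and fold, with medians of 12.2 in both lists against 1.52 in short control peaks and 1.18 in short CDCA peaks. The part of transcript abundance in these values was not tested.

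Within a broad peak the summit, the position of greatest height, was spread over the inner part of the peak. With each peak divided into 3 equal parts, the summit lay in the middle part in 464 control peaks (41.0%, 38.1 to 44.0) and 389 CDCA peaks (40.5%, 37.4 to 43.7). With 5 equal parts, summits spread evenly over the 3 inner ones, with 24.3%, 24.7% and 22.99% of control peaks and 24.2%, 24.2% and 24.8% of CDCA peaks. The outer parts held 15.1% and 12.9% in control and 13.02% and 13.9% in CDCA. Shorter peaks looked different. Of short peaks, 60.5% in control and 60.4% in CDCA had the summit in the middle part. Medium peaks had a dip there, with 15.6% in control and 20.2% in CDCA, between 32.9% and 34.2% in the neighbouring parts in control and 33.2% and 35.0% in CDCA. In the plot of summit place the broad class therefore has even inner parts and lower outer ones, with neither the single high middle part of short peaks nor the dip of medium peaks, in both lists.

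**Figure D1:**
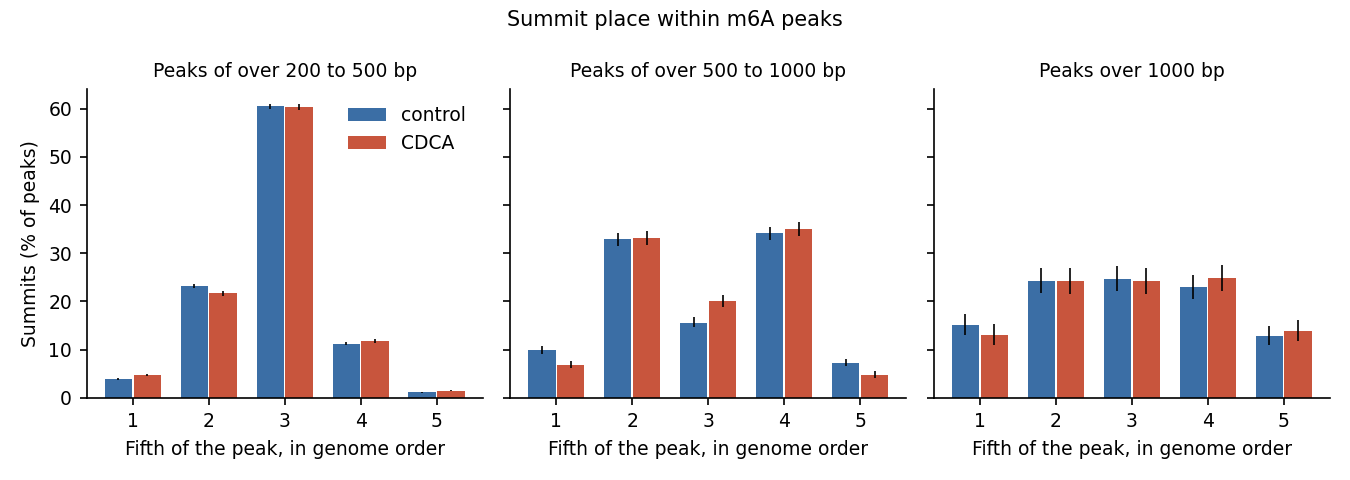
Share of summits (y axis, % of peaks) in each of 5 equal parts of the peak in genome order (x axis), for short, medium and broad peaks, control in blue and CDCA in red. Bars are shares and lines are exact 95% intervals. The middle part held 60.5% of summits in short control peaks, 15.6% in medium and 24.7% in broad ones.

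The distance from summit to nearer edge grew with peak length but less than length itself. It had a median of 352 bp in control peaks up to 1500 bp, 483.5 bp in those up to 2000 bp and 658 bp in longer ones, and of 347.5, 468 and 581 bp in CDCA. Measured as a share of length, strongly off-centre summits were most frequent in the longest broad peaks. The summit was within 10% of the peak's length from either end in 1.68% of control peaks up to 1500 bp (0.920 to 2.80), 5.05% of those up to 2000 bp (2.55 to 8.85) and 14.1% of longer ones (7.26 to 23.8). The CDCA shares were 0.877% (0.323 to 1.90), 2.59% (0.846 to 5.94) and 19.3% (11.4 to 29.4). Measured in bp the longer bins had fewer. The summit was within 200 bp of an edge in 23.8%, 14.2% and 7.69% in control and 19.9%, 9.33% and 10.8% in CDCA. Neither side was preferred. The left part up to the midpoint held 593 of 1131 control summits (52.4%, 49.5 to 55.4) and 469 of 960 CDCA summits (48.9%, 45.6 to 52.1).

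Some off-centre summits stood at the same place in both libraries. ASXL1, which codes for a chromatin regulator of the Polycomb system, had a 2675 bp control peak at chr20:31022479-31025153 with its summit 93.7% of the way along, and a 2572 bp CDCA peak with its summit at 94.4%. The JRK locus on chromosome 8 had its summit at 7.10% of a 2436 bp CDCA peak and at 12.1% of the 2912 bp control peak. An unnamed locus at chr9:33575401-33578478 had it at 6.21% in control and 9.31% in CDCA. AHNAK2, which codes for a giant scaffold protein, had its 4747 bp control summit at 95.1%, inside the last of 3 CDCA peaks, which was 623 bp long with its own summit at 29.7%. COL5A1 had no such match. This gene, which codes for a chain of fibrillar collagen V, had a 3790 bp CDCA peak at chr9:137709961-137713750 with its summit at 95.3%. The pair of control peaks under it, 1044 and 2377 bp long, had theirs at 48.1% and 44.1%.

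Nearly all broad peaks met a peak in the other list, here called a partner where 1 bp or more was common to both, and a sizeable minority met several. No partner was found for 67 control peaks (5.92%, 4.62 to 7.46), against 81.8% of all control peaks, and for 49 CDCA peaks (5.10%, 3.80 to 6.69), against 77.8% of all CDCA peaks. A match to 2 or more partners, a one-to-many match, was found for 207 control peaks (18.3%, 16.1 to 20.7), against 0.617% of all control peaks. In CDCA it was found for 155 (16.1%, 13.9 to 18.6), against 0.525% of all. A longer interval meets more peaks by its length alone, so the excess over the shorter classes was not read as more than that. The one-to-many share grew with length inside the broad class. It went from 14.1% up to 1500 bp through 28.9% to 33.3% above 2000 bp in control, and from 11.3% through 24.4% to 37.3% in CDCA.

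Only part of the overlaps joined a broad peak to another broad peak. A broad partner was found for 591 control peaks (52.3%, 49.3 to 55.2) and 592 CDCA peaks (61.7%, 58.5 to 64.8). Joined through their overlaps, the broad peaks and their partners fell into 1489 families. Of these 1021 (68.6%) held 1 peak from each list, 187 held 1 control and several CDCA peaks, 134 several control and 1 CDCA peak, 31 several of both, 67 a control peak alone and 49 a CDCA peak alone. The largest family held 6 peaks. A broad peak stood in both lists in 584 families (39.2%), in control only in 538 and in CDCA only in 367.

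In one-to-many matches the partners were usually peaks of up to 1000 bp side by side, with the summit of the broad peak inside one of them. Of the 207 control peaks, 151 (72.9%, 66.4 to 78.9) had no broad partner, 47 had 1 and 9 had 2. Of the 155 CDCA peaks, 109 (70.3%, 62.5 to 77.4) had none, 38 had 1 and 8 had 2. Partners covered a median of 76.0% of the control peak and 71.6% of the CDCA peak. The summit fell inside a partner in 199 control peaks (96.1%, 92.5 to 98.3) and 150 CDCA peaks (96.8%, 92.6 to 98.9), and in a gap in 8 and 5. The partners of a peak had consecutive numbers in 200 control cases (96.6%, 93.2 to 98.6) and 150 CDCA cases (96.8%, 92.6 to 98.9). Numbers ran in genome order with many skipped, taken here as entries that are not in the list, so in these cases no entry was missing from the gap. Over neighbouring peaks of a list at any distance, a number was skipped in 39.3% of control and 45.7% of CDCA pairs. Partners lie side by side, which leaves little room for a skipped entry. The share for neighbours equally close was not computed, so nothing is read from this comparison. One-to-many peaks were longer than those with 1 partner (median 1402 against 1226 bp in control, 1515 against 1233 bp in CDCA). They stood on a lower local background (8.0 and 14.4 in control, 8.0 and 13.9 in CDCA).

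The gaps between partners were short, and the lists differed in how short a gap could be. CDCA partners of a control peak were 117 to 1252 bp apart (222 gaps, median 193 bp), and control partners of a CDCA peak were 152 to 843 bp apart (167 gaps, median 260 bp). Over the whole lists, the smallest gap between any neighbouring peaks was 151 bp in control, where 9 gaps had that size, and 117 bp in CDCA, where 13 did. The CDCA list held 399 gaps below 151 bp and the control list 0 of 63069. Neighbouring peaks that close were thus listed in CDCA only, and no setting that would give this is stated in the sources used here. How many of the 399 gaps lay inside a single control peak of any length is not given here. In 59 of the 207 one-to-many control peaks (28.5%, 22.5 to 35.2) all gaps between the CDCA partners were below 151 bp. When CDCA peaks closer than that were joined, a choice made after this was seen, CDCA had 1076 broad peaks in place of 960. The CDCA number then went from 84.9% to 95.1% of the control number. The one-to-many share became 13.1% in control and 18.8% in CDCA, so that the order of the lists turned.

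**Figure D2:**
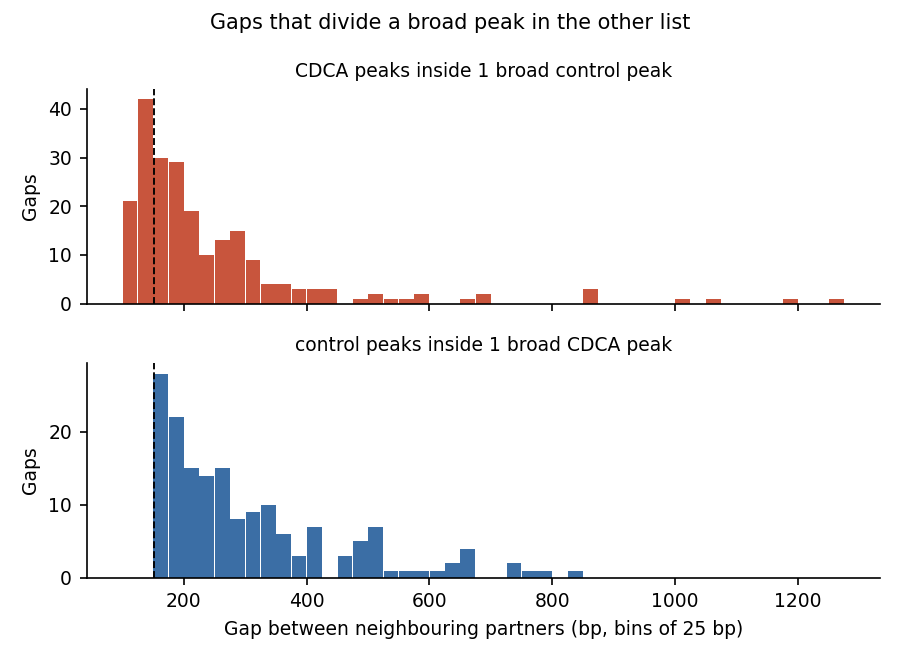
Number of gaps (y axis) by the distance between neighbouring partners that lie under 1 broad peak of the other list (x axis, bp, bins of 25 bp). CDCA partners are above in red and control partners below in blue, and the dashed line marks 151 bp, the smallest gap of the control list. Gaps left of the line, down to 117 bp, occur among the CDCA partners and not among the control partners.

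Named loci show both sizes of gap. AHRR, which codes for a repressor of the aryl hydrocarbon receptor, had a 3685 bp control peak at chr5:433840-437524 with a fold enrichment of 117.8. CDCA had 3 peaks there, of 1052, 406 and 789 bp, with gaps of 567 and 693 bp and folds of 69.7, 13.5 and 17.0, and the first summit was 2 bp from the control summit. MACF1, which codes for a linker of actin and microtubules, had a 3499 bp control peak at chr1:39875247-39878745. The CDCA peaks under it were 1514 and 1776 bp long and 152 bp apart. HELZ2, a helicase-like coactivator locus, had a 3415 bp control peak over 3 CDCA peaks with gaps of 163 and 143 bp. PHRF1, which codes for a PHD and RING finger protein, had a 2832 bp control peak over 3 CDCA peaks with gaps of 388 and 117 bp. The most divided control peak, at chr9:38566098-38569003 with no symbol given here, lay over 4 CDCA peaks with gaps of 178, 1008 and 130 bp. The AHRR gaps are well past both lower limits, while the MACF1 gap is 1 bp above the smallest gap of the control list.

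The reverse case was as clear at single loci. FGD6, which codes for an exchange factor for the GTPase CDC42, had a 2208 bp CDCA peak at chr12:95602659-95604866. Under it lay 4 control peaks of 376, 422, 339 and 232 bp with gaps of 421, 249 and 259 bp. RBM12B, which codes for an RNA-binding protein, had a 2766 bp CDCA peak over 3 control peaks with gaps of 226 and 266 bp. ADNP2, a zinc-finger homeobox gene, had a 3029 bp CDCA peak over control peaks of 1105 and 1495 bp, 518 bp apart. SON, which codes for a splicing cofactor of nuclear speckles, had a 3063 bp CDCA peak at chr21:34921887-34924949. It reached into a pair of broad control peaks of 2568 and 2538 bp that were 216 bp apart. The summit of the SON peak differed by 1 bp from that of the first control peak, and fold enrichment there was 96.8 in CDCA and 119.6 in control.

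Among the 1021 one-to-one pairs with a broad member, the summits stayed closer than the edges. Both members were broad in 496 pairs, the control peak alone in 319 and the CDCA peak alone in 206. The median distance between summits was 36 bp, against 92 bp between left edges and 118 bp between right edges. Summits lay within 50 bp in 600 pairs (58.8%, 55.7 to 61.8), left edges in 382 (37.4%, 34.4 to 40.5), right edges in 347 (34.0%, 31.1 to 37.0) and both edges in 131 (12.8%, 10.8 to 15.04). Over all 10569 one-to-one pairs of any length, summits lay within 50 bp in 52.8% and both edges in 23.1%. In pairs whose longer member was a medium peak the shares were 53.7% and 12.6%. Where both members were broad, both edges matched in 120 of 496 pairs (24.2%, 20.5 to 28.2) and summits in 312 (62.9%, 58.5 to 67.2). Large summit moves occurred too, with 91 pairs (8.91%) over 500 bp. In 9 of them both edges lay within 50 bp.

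RANBP6, which codes for a protein of the importin family, shows such a move. Its peak was 3456 bp long in control (chr9:6012052-6015507) and 3457 bp in CDCA, with both edges within 2 bp, and its summit lay at 82.5% of the peak in control and 62.7% in CDCA. PLEC, which codes for the cytoskeletal linker plectin, had adjoining broad peaks that behaved differently. The longer, 4195 bp in control and 4177 bp in CDCA, had its summit at 31.8% and 32.2%. The shorter, 3089 and 3203 bp, had it at 61.8% and 86.8%. The AHNAK peak, the longest of either list, spanned 5607 bp in control cells, with its summit at 15.3%, and 5502 bp under CDCA, with its summit at 13.5%. At PCBP3, which codes for a poly(C)-binding protein, the 3014 bp control peak and the 3041 bp CDCA peak had theirs at 18.6% and 23.8%.

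The length of paired peaks changed in both directions. The difference, CDCA minus control, had a median of −43 bp (order-statistic 95% interval −66 to −16), quartiles of −345 and 145 bp, and a range of −1706 to 1542 bp. The control peak was longer in 565 pairs and the CDCA peak in 456. The CDCA peak was at least 1.2 times as long in 207 pairs (20.3%, 17.8 to 22.9), against 26.3% of all one-to-one pairs, and the control peak in 352 (34.5%, 31.6 to 37.5), against 28.4%. Pairs entered by their length in either list and control had more broad peaks, so that this split is fixed in part by the choice of pairs and nothing is read from it. Where both members were broad the median difference was 1 bp (−13 to 14), with 250 pairs longer in CDCA and 246 longer in control. With CDCA peaks closer than 151 bp joined, there were 1100 pairs, of which 515 were longer in CDCA.

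How paired intervals lay to each other depended on which pairs were taken. The CDCA peak lay wholly inside the control peak in 316 pairs, the control peak inside the CDCA peak in 260, and the intervals were offset in 445. Where both members were broad these counts were 112, 120 and 264, and over all one-to-one pairs 2194, 2187 and 6190. Pairs broad in 1 list only have unequal lengths by choice, which favours nesting, so nothing is read from its frequency among the 1021. Exactly 1 edge lay within 50 bp in 467 pairs (45.7%, 42.7 to 48.9) and neither edge in 423 (41.4%), against 40.8% and 36.1% of all one-to-one pairs. A change at 1 end was thus about as frequent as a change at both, and each was more frequent than a match at both. In the plot of paired lengths many partners sit just short of the limit. Where the control peak alone was broad, the CDCA partner had a median length of 727 bp, and 130 of 319 (40.8%) were over 800 bp. Where the CDCA peak alone was broad, the control partner had a median of 820 bp and 113 of 206 (54.9%) were over 800 bp. Partners of 500 bp or less numbered 73 and 42.

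**Figure D3:**
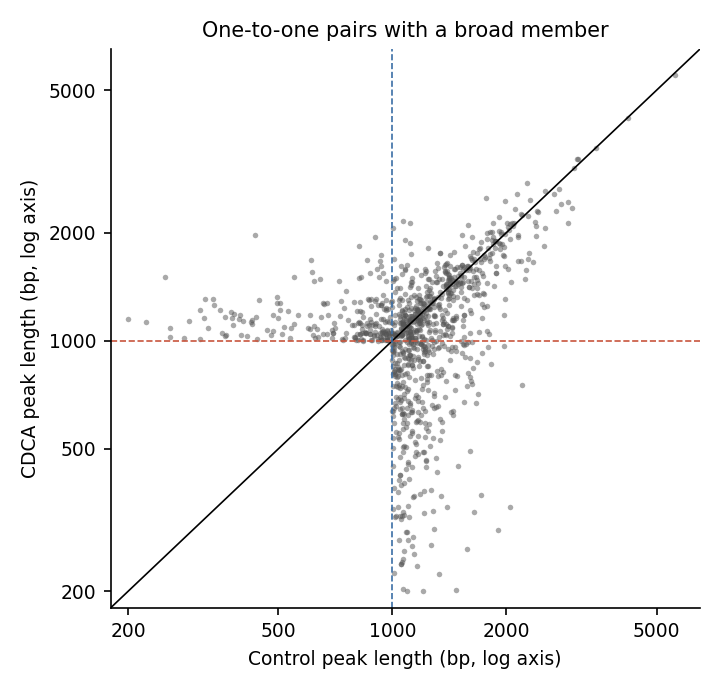
Length of the control peak (x axis, bp, log scale) and of the CDCA peak (y axis, bp, log scale) in the 1021 one-to-one pairs with a broad member, each point a pair. Dashed lines mark 1000 bp and the diagonal marks equal length. The 496 pairs with both members broad follow the diagonal, and 319 pairs lie below and 206 to the left of the limits.

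The largest gains and losses were spread over several chromosomes. SLFN5, a gene of the interferon-induced Schlafen family, had a control peak of 433 bp and a CDCA peak of 1975 bp (chr17:33591069-33593043), with the left edge 1364 bp farther out and summits 41 bp apart. DUSP16, which codes for a phosphatase of MAP kinases, went from 250 to 1510 bp and ZBED6, a transcription factor gene derived from a transposon, from 1068 to 2153 bp. ICAM1, which codes for an adhesion molecule for leukocytes, went from 608 to 1681 bp with summits 4 bp apart. Its −log10 q was 464.2 in control and 462.9 in CDCA. SMCR8, whose product acts in autophagy, went from 1006 to 2057 bp. In these 5 pairs the fold in CDCA was higher in 4 and lower in DUSP16 (8.24 in control, 6.99 in CDCA).

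Losses were of similar size. ZDBF2, an imprinted zinc-finger gene, had a peak of 1900 bp in control (chr2:207169456-207171355) and 296 bp in CDCA, with folds of 14.2 and 11.2. ALDH1B1, which codes for a mitochondrial aldehyde dehydrogenase, went from 2198 to 752 bp by its right edge, 1464 bp farther in, while left edges were 18 bp and summits 27 bp apart. Its fold was 15.4 in control and 17.6 in CDCA. RGS12, which codes for a regulator of G protein signalling, went from 1717 to 371 bp. Unnamed loci at chr3:159212950-159214999 and chr11:73114994-73116642 went from 2050 to 344 bp and from 1649 to 334 bp. Length and fold did not always move together at these loci. ALDH1B1 lost over 1000 bp with a higher fold in CDCA, and its −log10 q was 352.4 in control and 403.2 in CDCA. At ICAM1 they did. It gained over 1000 bp and its fold was 17.3 in control and 24.6 in CDCA, with nearly the same −log10 q. The part of read depth in these values was not tested.

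Broad peaks without a partner were weaker than the others and near the lower end of the length range. They had a median length of 1136 bp in control and 1089 bp in CDCA. Their median fold was 12.7 against 22.4 for control peaks with a partner, and 13.1 against 21.9 in CDCA. A fold below 10 was found in 22 of 67 (32.8%) against 10.7% of partnered peaks in control, and in 19 of 49 (38.8%) against 12.0% in CDCA. The nearest peak of the other list was a median of 4591 bp away for control and 5530 bp for CDCA peaks. It was within 200 bp for 2 and 3 of them and beyond 10 kb for 23 and 15. Where peaks of the other list lay on both sides, at least 1 peak number was skipped between them for 64 of 66 from control (97.0%, 89.5 to 99.6) and for all but 3 of 49 from CDCA (93.9%, 83.1 to 98.7). These flanking peaks lie over 1000 bp apart by construction. Over neighbouring peaks at any distance, a number was skipped in 45.7% of pairs in the CDCA list and 39.3% in the control list. A share at matched distances was not computed. Absence of a partner in a list made with thresholds does not show absence of enrichment.

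The most significant unpartnered control peaks lay at RPL7A (ribosomal protein), TUBB6 (beta tubulin), CENPB (centromere protein), DST (a cytoskeletal linker related to plectin) and NORAD (a noncoding RNA that binds Pumilio proteins). DST had the highest fold of these, 28.6, over chr6:56471470-56472626, and RPL7A the lowest, 6.68. In CDCA they lay at COLEC12 (a scavenger receptor), JUN (a subunit of the AP-1 transcription factor), SH3BP4 (an endocytic adaptor), MYH9 (nonmuscle myosin heavy chain) and ERLIN1 (a protein of endoplasmic reticulum rafts). JUN had a 2097 bp peak at chr1:59247351-59249447 with a fold of 16.1 and the summit at 8.16% of its length. The other CDCA peaks of this group had folds of 7.13 to 8.65, close to the lowest fold of 6.0 in each list. In control, RPL7A, NORAD (6.86) and CENPB (8.27) were as close to it, and TUBB6 had a fold of 19.9.

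A minority of the broad peaks lay within 10 kb of another in the same list. Such runs, here called clusters, numbered 64 in control with 144 peaks (12.7%, 10.8 to 14.8) and 54 in CDCA with 120 peaks (12.5%, 10.5 to 14.8). Of these, 54 and 44 were pairs and 10 in each list held 3 or more. Inside clusters, where gaps are at most 10 kb by definition, the median gap was 1699.5 bp for control and 1108.5 bp for CDCA. Clusters spanned a median of 5450 bp in control and 4168.5 bp in CDCA, of which broad peaks covered 70.4% and 71.3%. Chained in the same way among themselves, medium peaks, which are more numerous, were in clusters more often, at 24.2% in control and 21.9% in CDCA. A broad peak lay within 10 kb of 3.05% of short and 8.07% of medium control peaks, and of 2.74% and 7.13% of those of CDCA. A listed peak of any length lay that near 77.9% of broad and 79.1% of medium control peaks, and 73.3% and 73.5% in CDCA, so these classes had neighbours of any kind about equally often.

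Of the clusters, 26 of each list overlapped a cluster of the other, or 40.6% of the control clusters (28.5 to 53.6) and 48.1% of the CDCA clusters (34.3 to 62.2). Of the other control clusters, 21 met a single broad CDCA peak and 17 met none. Of the other CDCA clusters, 23 met a single broad control peak and 5 met none.

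The COL5A1 cluster was the largest in both lists. It held 7 broad control peaks over 23758 bp (chr9:137701974-137725731) and 5 broad CDCA peaks over 24077 bp. Of the control peaks, 1044 to 2377 bp long, the shortest and the longest lay side by side and were matched by the single 3790 bp CDCA peak. The control peak of 1945 bp had the highest −log10 q of the cluster (1847.7) and was matched by a pair of CDCA peaks that were not broad. Together these matches give the difference of 7 against 5 broad peaks at this locus. AHNAK2 had 4 broad control peaks of 1230 to 4747 bp over 14503 bp and 3 broad CDCA peaks of 1695 to 2097 bp. Fold of these broad peaks was 25.4 to 63.1 in control and 13.4 to 30.4 in CDCA, ranges that do not cover the same sites. The control peak with a fold of 63.1 was matched by CDCA peaks of 759 and 568 bp, with folds of 44.5 and 6.97. AHNAK, which codes for another giant scaffold protein, had 3 broad peaks in each list, of 1728 to 5607 bp in control and 1550 to 5502 bp in CDCA.

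**Figure D4:**
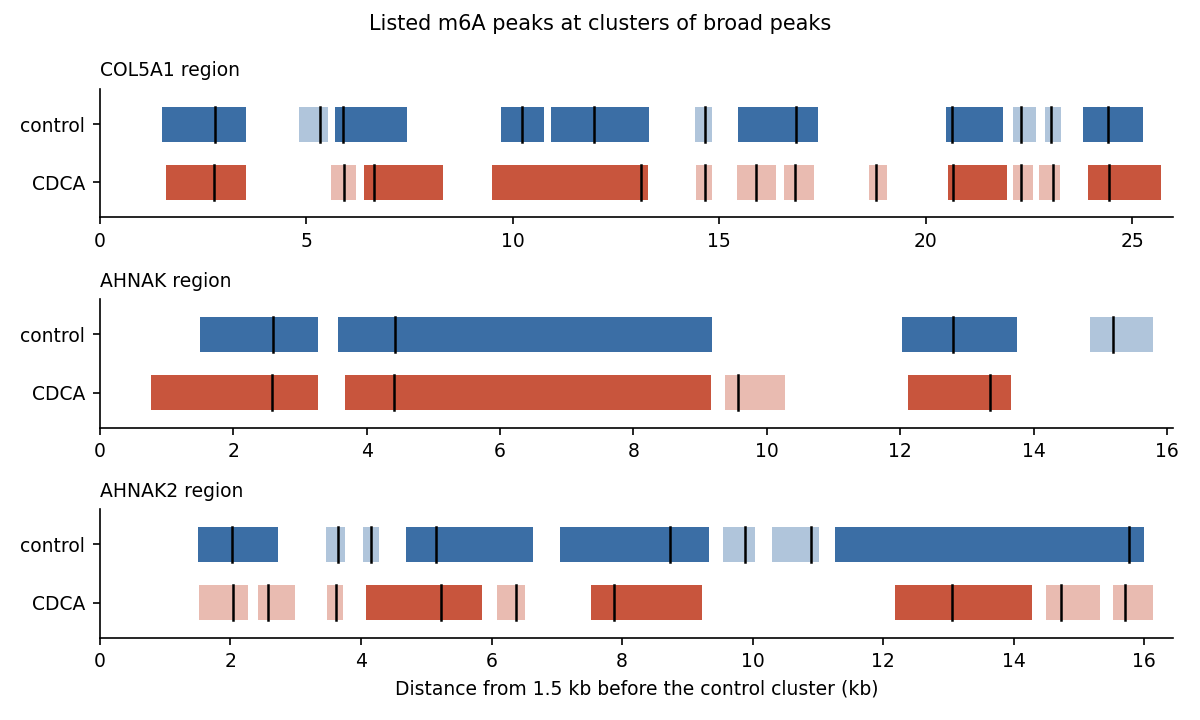
Listed peaks at the COL5A1, AHNAK and AHNAK2 clusters, control in blue and CDCA in red, along the distance in kb from 1.5 kb before the control cluster (x axis). Dark boxes are broad peaks, pale boxes shorter peaks and black lines summits. COL5A1 has 7 broad peaks in control and 5 in CDCA, AHNAK 3 and 3, and AHNAK2 4 and 3.

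Other clusters were uneven between the lists. MKI67, the gene of the proliferation marker Ki-67, had 4 broad control peaks of 1028 to 1448 bp over 18226 bp. Counting peaks of any length, the same span held 5 control peaks and 9 CDCA peaks, 3 of the latter broad. IRS1, which codes for an adaptor of the insulin receptor, had 3 broad control peaks within 4924 bp (2189, 1173 and 1041 bp), of which the second had no partner, and CDCA had 1 broad peak there. MACF1 had 3 broad CDCA peaks where control had 2, since its long control peak was divided by the 152 bp gap given above. The last of the 5 fullest CDCA clusters, on chromosome 13, held 3 broad peaks with folds of 21.1 to 42.0, against 1 broad control peak.

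Broad peaks were most frequent among the peaks of chromosome 19. Their share there was 3.84% in control (3.01 to 4.81) and 3.70% in CDCA (2.84 to 4.74), against 1.79% and 1.84% over all chromosomes. Chromosomes 11, 16, 17, 20, 21 and 22 also lay above the share over all chromosomes in both lists, at 2.20% to 3.23% in control and 2.02% to 3.50% in CDCA. The interval included the overall share for chromosomes 11 and 21 in both lists and for chromosome 20 in CDCA. Chromosome X had the lowest share, 0.855% (0.499 to 1.37) and 0.710% (0.368 to 1.24). The order of chromosomes is a description, since both lists come from the same cell line.

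**Figure D5:**
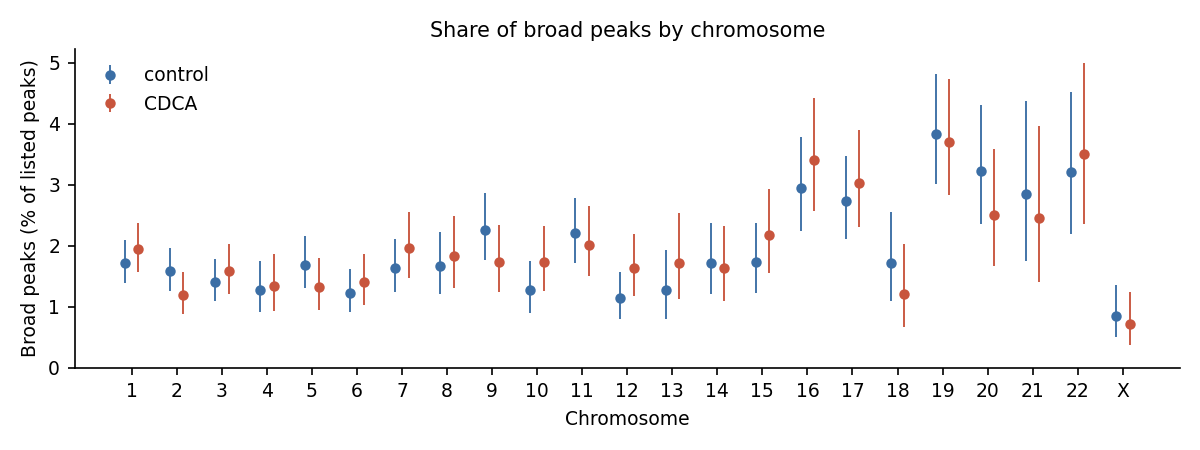
Broad peaks as a share of all listed peaks (y axis, %) on each chromosome (x axis), control in blue and CDCA in red. Points are shares and lines are exact 95% intervals. Chromosome 19 is highest at 3.84% and 3.70% and chromosome X lowest at 0.855% and 0.710%.

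In windows of 1 Mb, placed by summit, 877 windows held a broad peak, 714 in control, 645 in CDCA and 482 in both. The fullest were on chromosome 14 from 105 to 106 Mb, which includes AHNAK2, with 9 broad peaks in control and 6 in CDCA, and on chromosome 8 from 144 to 145 Mb, which includes PLEC, with 8 and 7. The window on chromosome 9 from 137 to 138 Mb, with COL5A1, held 7 and 5. Windows with 5 or more numbered 23 in control and 10 in CDCA. A single broad peak, over both lists, stood in 349 windows.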

How the data were processed

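A list of peaks was deposited for each m6A immunoprecipitation library. Per the file headers, each entry gives start, end, length and summit counted from 1. The authors' pileup column is the signal height at each summit. Fold enrichment is a ratio, per the file headers, and the authors gave significance as −log10 of p and of q. Per the submitters' processing notes, TopHat2 2.0.13, MACS2 2.1.0 and hg19 were used. Thresholds, and how nearby stretches were joined, are not stated in what was used here. The lists skip 47060 (control) and 47941 (CDCA) peak numbers. The lowest listed fold was 6.0 in each list. Depth in reads is unknown.

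Peaks over 1000 bp were taken as broad. Partners were peaks of the other list that overlapped by at least 1 bp. One-to-one pairs were peaks with a single partner each way. Summit place was the distance from start over length minus 1. Clusters chained broad peaks with gaps of at most 10 kb. Local background was height plus 1 over fold, minus 1. Shares carry Clopper-Pearson 95% intervals, and medians of differences an order-statistic interval. No test between conditions was run, as each had 1 library. The members and lists were chosen with earlier results of these data known. Items were named by rank: the 10 longest peaks, the 5 with most partners, the 5 most significant without a partner, the 5 most off-centre and the 5 fullest clusters of each list, the 5 largest gains and losses of length, and the 3 peaks on either side of the limit. Of 70 such items 59 have a symbol. Gene groups could not be counted without an hg19 annotation, and sequences were not used here. Alternatives varied the length limit, peak strength, joining, overlap, tolerance and cluster gap. Tools were Python 3.11.15, scipy 1.17.1, pandas 2.3.3, numpy 2.4.6 and matplotlib 3.10.9. On simulated data, 4 of 4 steps tested on 2000 peaks returned the known answers.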

Additional observations from a re-analysis of the deposited data

How the results depend on the processing

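With 14 results and 14 settings, 77 of 125 values moved by no more than counting error and 48 moved further. The 1 result that could change sign, the median length difference, stayed negative, a sign fixed in part by the choice of pairs. Its interval took in positive values above 1500 bp (−27 bp, −80 to 19). The same held with peaks up to 200 bp apart merged (−18.5 bp, −47 to 2) and with equal numbers of broad peaks. Where both members were broad the median was 1 bp. No paired analysis was possible because each condition had 1 library. Depth in reads is unknown, and its part in lengths and edges was not tested. Values for control and CDCA follow in that order. Above 800 bp, peaks without a partner were 10.3% and 6.97%, with several partners 13.6% and 12.0%, and in clusters 18.3% in control. Above 1500 bp, summits in the middle of 3 parts were 36.5% in control, peaks without a partner 1.01% and 1.81%, with several 30.1% and 28.3%, one-to-one 65.9% and 65.6%, in clusters 7.43% and 9.78%, summits of pairs within 50 bp 62.4%, and the CDCA number 93.2% of control. With a −log10 q of at least 50, peaks without a partner were 12.8% in control, with several 10.03% and 9.74%, and one-to-one 79.5% in CDCA. With a fold of at least 10, those without a partner were 14.7% and 11.3% and with several 10.4% and 9.74%. With equal numbers of broad peaks the median length difference was −9 bp (−34 to 9), against −42 to −9 over all alternatives. With peaks up to 200 bp apart merged, peaks with several partners were 11.4% and 16.5%, so that the order of the lists turned as it did with only CDCA peaks joined, one-to-one matches were 77.3% in control, both edges matched in 10.6% of pairs, and the CDCA number, 1203 against 1285, was 93.6% of control. The middle of 5 equal parts in place of 3 held 24.7% and 24.2%. An overlap of at least 200 bp gave 13.5% with several partners and 76.5% one-to-one in CDCA. An overlap of 50% of the shorter peak gave 16.0% and 12.9% with several, and 77.3% one-to-one in CDCA. A tolerance of 20 bp gave 4.02% for both edges and 33.3% for summits, and 100 bp gave 23.6% and 72.1%. Cluster gaps of 2 kb gave 7.25% and 8.85%, and 50 kb gave 23.7% and 20.4%. With CDCA peaks closer than 151 bp joined, added after the data were seen, several partners were 13.1% and 18.8%, one-to-one matches 76.2% in control, and the CDCA number 95.1% of control. Apart from the changes that the setting itself makes, the cause was not tested.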
